A study of Mus musculus with 2 samples.

Results

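Cyclins, their kinases and inhibitors, the Rb and E2f proteins, replication licensing factors and mitotic regulators were examined as a set of 50 genes in the limb of the mouse embryo at 15.5 days. The members were named by symbol, and each of the 50 was found among the 43346 mouse gene rows of the quantification tables. They were divided by role into 8 genes of the G1 phase, 13 genes of S phase, 12 genes of mitosis, 6 CDK inhibitors and 11 genes of the Rb and E2f families. Total RNA was sequenced from limbs of healthy B6NCrl embryos, with no treatment or genotype contrast, in 1 group of 2 biological replicates. Replicate 1 pooled 78 embryos and replicate 2 pooled 62 embryos, males and females together, and fore- and hindlimb are not distinguished in the labels. Each value below is therefore a level in whole limb, given per library or as mean ± SD (n = 2). No condition was compared, so no test was made.

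Cells commit to division when D-type cyclins with CDK4 or CDK6, and then E-type cyclins with CDK2, phosphorylate the retinoblastoma protein and its relatives, which frees E2F factors to switch on genes for DNA synthesis. The MCM helicase is loaded on replication origins by CDC6 and CDT1 in G1, geminin blocks reloading, and CDK1 with cyclins A and B later drives mitosis until the anaphase-promoting complex destroys the cyclins. CDK inhibitors of the Cip/Kip and Ink4 families hold this sequence back. In the growing limb it runs in mesenchyme, in dividing cartilage cells, in the basal layer of the skin and in muscle precursors, while differentiating cells of each lineage leave the cycle.

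The libraries held 35104685 and 41757268 expected counts, of which 2.29% and 2.26% were spike-in RNA. Limb tissue markers were present in both: the 10 cartilage markers summed to 1505 and 1553 TPM, the 10 epidermis markers to 8430 and 8487 TPM, and the 10 limb mesenchyme and position markers to 376 and 426 TPM. Blood cells and macrophages were part of the tissue, with 12446 and 12677 TPM in 10 erythroid markers and 445 and 375 TPM in 10 macrophage markers. The pools stood apart in several of these lists. All 10 skeletal muscle markers were higher in replicate 1, where their sum was 6078 TPM against 1772 TPM in replicate 2. In the other direction, 8 of 10 limb mesenchyme and position markers (median log2 of replicate 2 over replicate 1 0.50) and 6 of the 9 erythroid markers with at least 1 TPM (median 0.66, with Hbb-y at 190 and 417 TPM) were higher in replicate 2. The most abundant erythroid markers, Hbb-bs (6903 and 6890 TPM) and Hba-a1 (5206 and 5180 TPM), were level between the pools. Msx1 and Tbx5 of the limb list were higher in replicate 1. None of these 60 markers was listed at 0.

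Genes of G1, S phase and mitosis were mostly expressed well above the typical gene. TPM divides the reads of a gene by its length and scales each library to the same total of transcripts, so that levels can be compared between genes. The median over the 50 members was 61.9 ± 1.77 TPM, beside 15.7 ± 0.205 TPM over the 15571 mouse genes with a mean of at least 1 TPM. Of the 50 members, 49 reached that mean, 46 had at least 10 TPM in both libraries and 16 had at least 100 TPM in both. The median was 95.5 ± 2.91 TPM for the G1 genes, 90.1 ± 3.20 TPM for the S-phase genes and 103 ± 5.73 TPM for the mitosis genes. The CDK inhibitors and the Rb and E2f genes lay lower, at 14.3 ± 0.965 and 17.5 ± 0.134 TPM, near the median of the 15571 genes. The inhibitor median does not describe Cdkn1a, at 282 ± 80.9 TPM, and leaves out Cdkn1c, which was not a member. In whole tissue, more cells in cycle and more RNA per cell in cycle cannot be told apart.

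**Figure D1:**
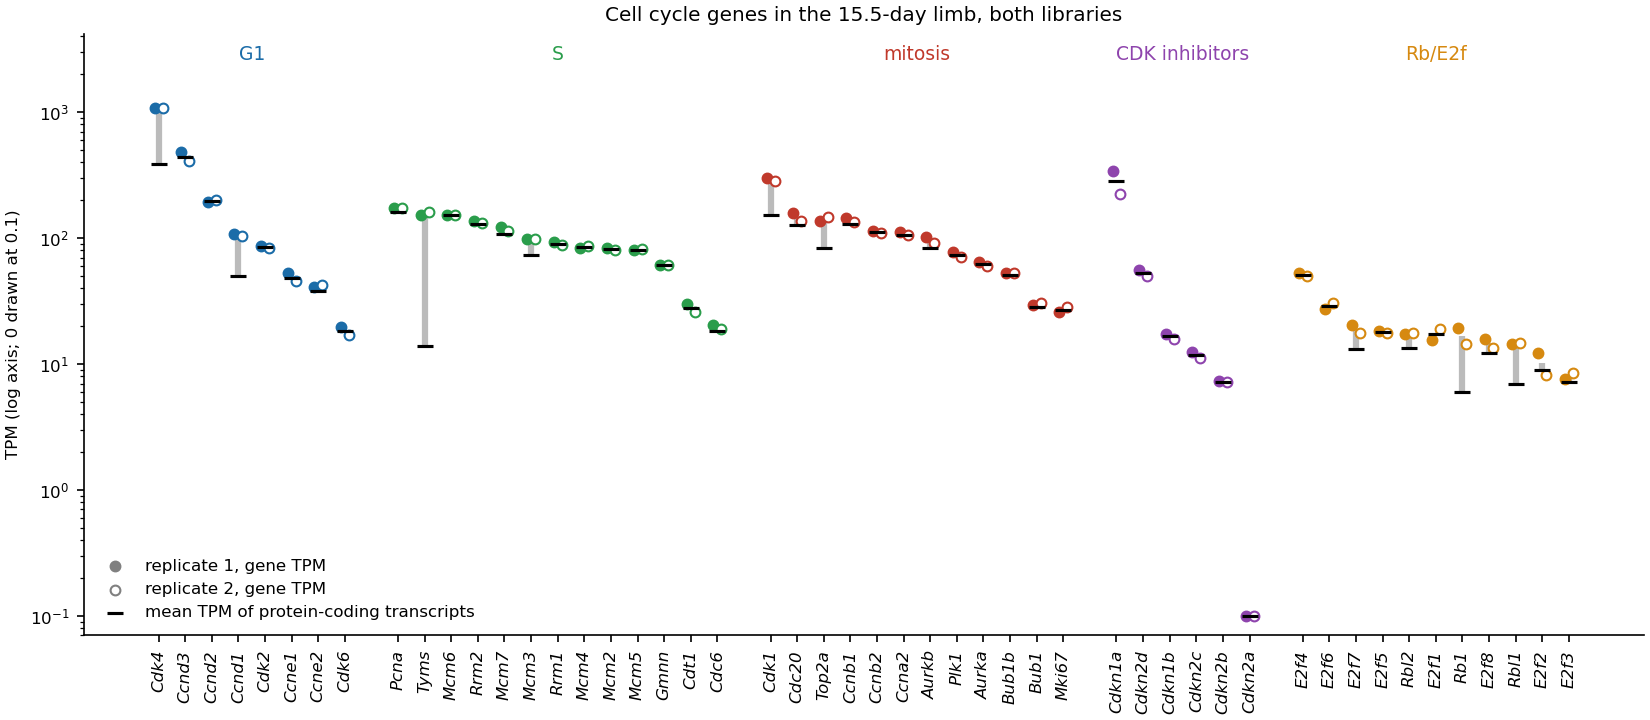
TPM of the 50 members (log axis, by role and in order of mean level), with filled points for replicate 1, open points for replicate 2 and a black bar for the mean TPM of the protein-coding transcripts alone, joined to the gene mean by a grey line. Cdk4 is highest at 1081 and 1073 TPM, Cdkn2a is listed at 0 and drawn at 0.1, and the longest grey line belongs to Tyms.

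Kinase genes of G1 spanned a wide range. Cdk4, the catalytic partner of the D cyclins (ENSMUSG00000006728.8, chromosome 10, 127063534 to 127067920), stood at 1081 TPM in the library of replicate 1 and 1073 TPM in that of replicate 2, the highest gene level among the members and above 99.4% of the 15571 genes. Cdk6, which binds the same cyclins, had 19.7 and 17.0 TPM. Cdk4 thus exceeded Cdk6 by 5.87 ± 0.14 on the log2 scale, which is 58.6-fold. As a yardstick for such ratios, the distance between replicates was used. Among genes of like level, 95% had a log2 gap between the libraries smaller than this value, which was 0.50 for this pair. The yardstick describes 1 gene between libraries and does not cover errors of length or annotation in a ratio of 2 genes. Cdk2, the partner of cyclin E, had 87.2 and 82.9 TPM, between the other two in both libraries. The 4 kinase genes Cdk1, Cdk2, Cdk4 and Cdk6 together had 1473 ± 23.5 TPM, and Cdk4 made up 73.1% ± 0.757 of it.

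All 3 D cyclin genes were expressed, with Ccnd3 (ENSMUSG00000034165.12, chromosome 17, 47505051 to 47599691) in front. Ccnd3 had 481 and 410 TPM, Ccnd2 had 192 and 200 TPM, and Ccnd1 had 108 and 104 TPM. The ranges over the libraries did not overlap between any of these genes. Ccnd3 exceeded Ccnd1 by log2 2.07 ± 0.12 (4.19-fold, yardstick 0.50), and Ccnd2 exceeded Ccnd1 by 0.89 ± 0.08 (1.85-fold, yardstick 0.37). In coding transcripts alone these log2 ratios were 3.13 ± 0.23 and 1.97 ± 0.02, and in counts not divided by length Ccnd2 over Ccnd1 was 2.43. Ccnd2 lay below Ccnd3 by log2 -1.18 ± 0.20, although Ccnd2 drew the most reads of all members (24049 and 30548 expected counts), and counts not divided by length gave Ccnd2 over Ccnd3 a log2 ratio of 0.43. The E cyclins, which act with CDK2 at the start of S phase, were nearer to each other: Ccne1 had 52.7 and 45.9 TPM and Ccne2 had 40.9 and 42.8 TPM. Their log2 ratio of -0.23 ± 0.19 was within the yardstick of 0.37.

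Some of these gene levels in TPM rested largely on transcripts that are not annotated as protein-coding, though the members were near other genes in this. Transcript classes, taken from a later GENCODE release (M21) than the one used for counting (M4) and possibly different in it, name spliced coding forms, forms with a retained intron, forms marked for nonsense-mediated decay and other processed transcripts. The members had 201 transcripts in the tables, of which 104 were annotated as protein-coding, 62 as retained intron, 25 as processed transcript and 10 as nonsense-mediated decay. Coding transcripts carried over 90% of the TPM in 34 of the 49 members that had any, but 13 members have only 1 transcript. Among 35 members with at least 2 transcripts and a mean of at least 10 TPM, 5 (14.3%) had under 50% of their TPM in coding transcripts. This compares with 9.88% of the 6854 protein-coding genes of that kind. Over 90% coding were 21 of these 35 members and 3790 of those 6854 genes. In expected counts 1 member, Tyms, was under 50%. The median coding share was 93.2% for these 35 members and 92.5% for those 6854 genes.

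Tyms (ENSMUSG00000025747.8, chromosome 5, 30058202 to 30073617), which encodes the thymidylate synthase that makes dTMP, had the lowest coding share. Its gene level was 154 and 162 TPM, but its coding transcript Tyms-201 had 15.02 and 12.8 TPM, or 8.84% ± 1.33 of the gene. Tyms-205, annotated for nonsense-mediated decay, had 69.8 and 72.2 TPM, and the retained intron form Tyms-202 had 46.5 and 55.2 TPM. By coding transcripts alone Tyms dropped from place 7 to place 40 among the members. This held in reads as well as in TPM, since coding transcripts took 23.9% of its expected counts.

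The same split moved Cdk4 from the top of the list. Its coding transcripts had 406 and 375 TPM (36.3% ± 1.77 of the gene), and the 468-nucleotide retained intron form Cdk4-209 had 417 and 423 TPM. On this scale Ccnd3 came first with 475 and 404 TPM, and Cdk4 over Cdk6 was log2 4.41 ± 0.07. The 2 replicates gave Cdk4 and Ccnd3 overlapping ranges there (375 to 406 against 404 to 475 TPM), although Ccnd3 was the higher in each library. Ccnd1 kept 48.7 and 51.6 TPM in its coding transcript, 47.4% ± 3.17 of the gene, beside a retained intron form of 470 nucleotides with 59.2 and 52.4 TPM. That short form held few reads, 490 and 530 against 3954 and 5121 expected counts for the coding form. Division by a short length thus raised its share, and by counts 89.8% of Ccnd1 was coding.

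**Figure D2:**
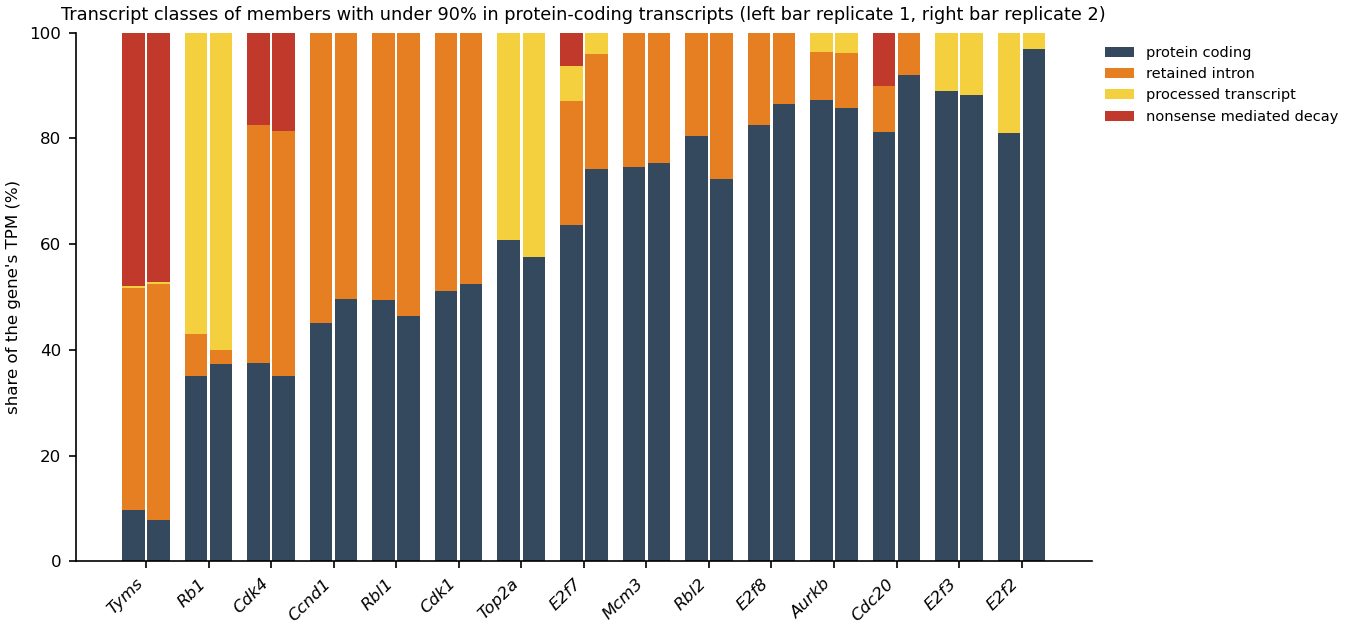
Share of the gene's TPM by annotated transcript class (percent, stacked to 100) in the 15 members with under 90% in protein-coding transcripts, with the left bar of each gene for replicate 1 and the right bar for replicate 2. Coding shares run from 8.84% in Tyms upward, and the bars of the 2 replicates are close in most genes and farther apart in E2f2, E2f7 and Cdc20.

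CDK inhibitor genes were led by Cdkn1a. Cdkn1a encodes p21, a Cip/Kip inhibitor that accompanies cell cycle exit, and its gene (ENSMUSG00000023067.9, chromosome 17, 29090976 to 29100727) stood at 339 and 225 TPM in replicates 1 and 2. Its fellow Cdkn1b, which encodes p27, had 17.4 and 16.0 TPM, lower than Cdkn1a by log2 -4.05 ± 0.33 (16.5-fold, yardstick 0.50). The third gene of that family, Cdkn1c (p57), was not among the 50 members and had 851 and 717 TPM. Among the Ink4 inhibitors, which bind CDK4 and CDK6, Cdkn2d (p19) had 56.2 and 50.2 TPM, Cdkn2c (p18) had 12.6 and 11.2 TPM and Cdkn2b (p15) had 7.34 and 7.14 TPM. Cdkn2d made up 73.5% ± 0.472 of the Ink4 sum and exceeded Cdkn2c 4.44-fold (log2 of Cdkn2c over Cdkn2d -2.15 ± 0.0038, yardstick 0.56).

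Cdkn2a, the locus of p16 and the p53 activator Arf, had no reads in either library. Both of its annotated transcripts, Cdkn2a-201 and Cdkn2a-202, were at 0 expected counts. A count of 0 allows up to 3 counts, which for the length of this gene is 0.174 TPM in replicate 1 and 0.142 TPM in replicate 2. Against that limit in each library, its genomic neighbour Cdkn2b was at least 42.3-fold and at least 50.3-fold higher. Cdkn2b lies at chromosome 4, 89306299 to 89311039, and Cdkn2a at chromosome 4, 89274471 to 89294653, both on the minus strand (GRCm38).

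Retinoblastoma family genes were among the lower members. Rb1 had 19.2 and 14.4 TPM, Rbl1 (p107) had 14.5 and 14.7 TPM, and Rbl2 (p130) had 17.4 and 17.8 TPM. None of the 3 pairwise log2 ratios (Rbl1 over Rb1 -0.18 ± 0.31, Rbl2 over Rb1 0.08 ± 0.31, Rbl1 over Rbl2 -0.27 ± 0.0031) passed its yardstick of 0.48. In coding transcripts Rbl2 stood above Rbl1 and Rb1: Rbl2 had 14.0 and 12.8 TPM, Rbl1 had 7.16 and 6.84 TPM, and Rb1 had 6.71 and 5.37 TPM. Rbl2 over Rb1 was then log2 1.15 ± 0.13 and Rbl1 over Rbl2 -0.93 ± 0.05. Rbl1 over Rb1 was 0.22 ± 0.18, still within 0.48. The difference for Rb1 came from Rb1-206, a processed transcript of 408 nucleotides with 75 and 73 expected counts but 10.9 and 8.63 TPM, beside 682 and 667 expected counts for the coding Rb1-201. By counts 88.5% of Rb1 was coding, so its TPM as a gene rests on few reads of a short form. Rb1 is also overlapped on the other strand by Rcbtb2 (77.6 and 73.8 TPM) and Lpar6 (10.7 and 10.4 TPM), and Rbl2 by Aktip (59.3 and 55.6 TPM), so the levels of both carry the same doubt about strand as those of other overlapped members.

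Among the E2f transcription factors the repressor genes E2f4 and E2f6 lay above each activator gene in both libraries. E2f4, a repressor that works with the pocket proteins in resting cells, led with 53.0 and 49.8 TPM and made up 30.7% ± 0.576 of the E2f sum. E2f6 followed with 27.5 and 30.3 TPM, the atypical repressors E2f7 and E2f8 had 20.6 and 17.6 TPM and 15.8 and 13.5 TPM, and E2f5 had 18.4 and 17.7 TPM. E2f5 is overlapped on the other strand by 1810022K09Rik, which had 299 and 354 TPM, and its level is uncertain for that reason, because no source says whether reads were counted by strand. The activators were E2f1 with 15.4 and 19.0 TPM, E2f2 with 12.2 and 8.20 TPM, and E2f3 with 7.63 and 8.53 TPM. E2f4 exceeded E2f1 2.99-fold (log2 1.58 ± 0.27, yardstick 0.48), and E2f3 lay below E2f1 (log2 -1.08 ± 0.10, yardstick 0.70). Together the 3 genes E2f1 to E2f3 had 35.3 and 35.7 TPM and the 5 genes E2f4 to E2f8 had 135 and 129 TPM. The ranges of E2f5, E2f7 and E2f8 over the libraries overlapped that of E2f1. E2f8 and E2f7 did not differ beyond the yardstick (log2 -0.38 against 0.48).

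**Figure D3:**
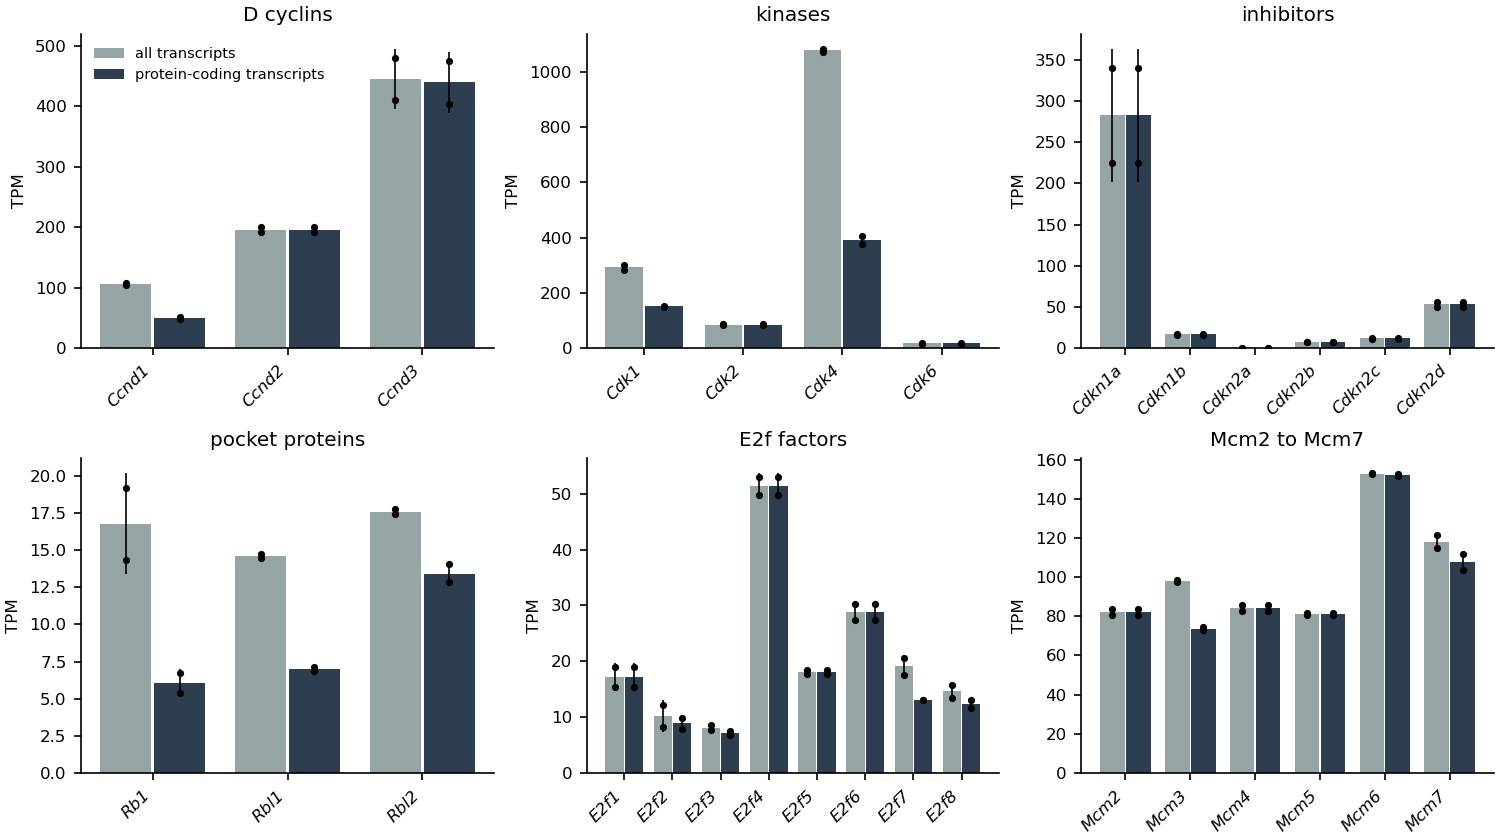
TPM of 6 gene families (bars are means of the 2 replicates, error bars are SD, points are the replicates), in grey over all transcripts and in dark blue over protein-coding transcripts. Coding transcripts lower Cdk4 from 1077 to 391 TPM and bring Rbl2 above Rb1 and Rbl1, while the Mcm genes other than Mcm3 and Mcm7 keep nearly all of their level.

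DNA replication genes ranged from 19.7 ± 0.884 TPM for Cdc6 to 173 ± 0.113 TPM for Pcna. PCNA, the sliding clamp of the polymerases, had the highest level among the S-phase members, with Pcna at 173 and 172 TPM. The 6 subunits of the MCM helicase are loaded as a ring with 1 copy of each, and their genes had 152.9 and 153.0 TPM (Mcm6), 122 and 115 TPM (Mcm7), 97.8 and 98.5 TPM (Mcm3), 82.9 and 85.9 TPM (Mcm4), 83.7 and 80.6 TPM (Mcm2) and 80.5 and 81.5 TPM (Mcm5). The highest was 1.90 times the lowest in both libraries, and 2.07 ± 0.018 times in coding transcripts. Mcm6 exceeded Mcm2 by log2 0.90 ± 0.04 (yardstick 0.37). The range of Mcm2 over the libraries overlapped those of Mcm4 and Mcm5, so their order was not resolved. Mcm7 shares its locus with Cops6 on the other strand (275 and 245 TPM), so its place above the others is less certain.

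Loaders of the helicase were scarcer than the helicase. Cdc6 had 20.3 and 19.0 TPM and Cdt1 had 29.8 and 25.7 TPM, below each of the 6 Mcm genes in both libraries. Gmnn, which encodes the CDT1 inhibitor geminin, had 61.4 and 60.7 TPM, so that Cdt1 over Gmnn was log2 -1.14 ± 0.14 (yardstick 0.50). In counts not divided by length this ratio was 0.15. Ribonucleotide reductase, the source of deoxynucleotides, had 137 and 131 TPM for its small subunit gene Rrm2 and 92.4 and 87.8 TPM for its large subunit gene Rrm1. Rrm2 exceeded Rrm1 1.49-fold (log2 0.57 ± 0.0040, yardstick 0.37), and in counts not divided by length the sign turned (-0.39).

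Promoter sequences of the members were searched for the E2F motif, the site through which E2F factors are known to act. RefSeq windows of 250 bases before to 50 bases after a start site (GRCm38.p6) were matched to 40 of the 50 members. Those not matched were Aurkb, Ccna2, Ccnd1, Ccnd2, Ccne2, E2f4, E2f5, Gmnn, Mcm4 and Rb1. The E2F motif was searched on both strands as TTTCCCGC, as TTTGGCGC, as TTTCGCGC or as TTTGCCGC. It was found in 6 of 11 S-phase members, 4 of 8 Rb and E2f members, and 1 member each of the 5 G1 genes, the 10 mitosis genes and the 6 CDK inhibitors. Over all 27025 genes with a window the share was 2.61%, and over the 7317 of them with a mean of at least 10 TPM it was 5.15%. The stretches before the start sites of Mcm6 and Mcm5 are shown because each has a pair of E2F matches, 1 on each strand, that overlap. Capitals mark E2F matches and CCAAT or its reverse complement ATTGG, each is written 5′ to 3′ along the gene's strand and ends at the base before the RefSeq start.
Mcm6 (chr1:128359706-128359825, minus strand): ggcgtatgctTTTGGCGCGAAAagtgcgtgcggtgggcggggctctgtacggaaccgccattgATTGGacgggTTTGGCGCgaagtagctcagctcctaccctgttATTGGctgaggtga
Mcm5 (chr8:75109349-75109508, plus strand): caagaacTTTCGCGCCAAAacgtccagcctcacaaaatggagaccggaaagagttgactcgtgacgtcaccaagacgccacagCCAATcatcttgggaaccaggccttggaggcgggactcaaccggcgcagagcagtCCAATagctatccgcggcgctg
The Mcm6 start is 41 bases from the nearest GENCODE start of that gene and the Mcm5 start 60 bases. Mean levels of these genes were 153 TPM for Mcm6 and 81.0 TPM for Mcm5.

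Mitotic genes reached the highest subgroup median. Cdk1 (ENSMUSG00000019942.8, chromosome 10, 69335146 to 69352938), the kinase that drives entry into mitosis, had 301 and 284 TPM, and exceeded Cdk2 3.43-fold (log2 1.78 ± 0.0091, yardstick 0.50). In coding transcripts Cdk1 had 154 and 149 TPM, since retained intron forms of 475 and 378 nucleotides took much of its TPM, and the log2 ratio to Cdk2 was 0.83 ± 0.02. Its cyclins were close to each other: Ccnb1 had 145 and 134 TPM, Ccnb2 had 114 and 109 TPM, and Ccna2 had 111 and 106 TPM. Ccnb1 over Ccnb2 was log2 0.32 ± 0.03 and Ccna2 over Ccnb1 was log2 -0.36 ± 0.03, both within the yardstick of 0.37.

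Aurora, Polo and Bub genes lay below the mitotic cyclins. Aurkb, the kinase of the chromosomal passenger complex, had 103 and 91.4 TPM, and Aurka, the spindle pole kinase, had 64.9 and 60.6 TPM (log2 of Aurka over Aurkb -0.63 ± 0.05, yardstick 0.35). Plk1, a kinase of many mitotic steps, had 76.9 and 70.6 TPM. The spindle checkpoint genes Bub1b (BubR1) and Bub1 had 53.1 and 52.8 TPM and 29.3 and 30.3 TPM, with Bub1 lower by log2 -0.83 ± 0.04 (yardstick 0.38). Their target Cdc20, the activator of the anaphase-promoting complex, had 157 and 136 TPM, and overlaps Elovl1 on the other strand (258 and 224 TPM).

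The usual proliferation markers differed in level. Top2a, the topoisomerase that untangles replicated chromosomes, had 136 and 146 TPM, and Mki67, which encodes the Ki-67 antigen, had 25.7 and 28.3 TPM. Top2a exceeded Mki67 5.22-fold (log2 2.38 ± 0.02, yardstick 0.50) over all transcripts. In coding transcripts Top2a had 82.6 and 84.0 TPM, and the log2 ratio was 1.63 ± 0.08. By expected counts Mki67, a long gene product, ranked 11 among the 50 members, against 35 by TPM.

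The mitotic promoters were searched for CCAAT boxes and the cell cycle homology region (CHR). CCAAT is bound by NF-Y, and the CHR is the element through which the DREAM complex and MuvB with B-Myb and FoxM1 are known to act. The CHR was searched as TTTGAA or TTCGAA and CCAAT by its letters, on both strands, in the same windows. CCAAT was found in 10 of 10 mitosis members with a window and 8 of 11 S-phase members, beside 41.1% of all 27025 genes and 43.6% of those with at least 10 TPM. At least 2 CCAAT matches were found in 8 of the 10 mitosis members and in 13.3% of all genes. The CHR was found in 9 of 10 mitosis members, 4 of 8 Rb and E2f members, 2 of 11 S-phase members, 1 of 6 CDK inhibitors and 0 of 5 G1 genes, beside 21.7% of all genes and 16.5% of those with at least 10 TPM. In the 250 bases before the start alone the CHR was in 6 of the 10 mitosis members, against 19.6% of all genes. Motifs this short occur often by letters alone, and a match is not evidence of binding.

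The 120 bases before 4 mitotic start sites are shown because they carry 2 or 3 CCAAT boxes each at short spacing, and 3 of them a CHR near the start. Capitals mark CCAAT or its reverse complement ATTGG, and TTTGAA, its reverse complement TTCAAA or TTCGAA, written 5′ to 3′ along the gene's strand.
Ccnb2 (chr9:70421555-70421674, minus strand): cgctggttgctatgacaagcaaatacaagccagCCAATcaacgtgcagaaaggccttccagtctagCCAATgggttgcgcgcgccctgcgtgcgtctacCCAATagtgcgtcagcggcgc
Cdc20 (chr4:118437344-118437463, minus strand): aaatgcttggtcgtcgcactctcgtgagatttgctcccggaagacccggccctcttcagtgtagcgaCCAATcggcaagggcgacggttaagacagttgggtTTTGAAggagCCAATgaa
Cdk1 (chr10:69352913-69353032, minus strand): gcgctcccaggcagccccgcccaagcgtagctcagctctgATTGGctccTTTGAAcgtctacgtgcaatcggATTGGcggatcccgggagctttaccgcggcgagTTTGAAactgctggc
Top2a (chr11:99024190-99024309, minus strand): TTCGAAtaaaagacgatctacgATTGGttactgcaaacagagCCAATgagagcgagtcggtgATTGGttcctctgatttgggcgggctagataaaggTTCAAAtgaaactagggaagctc
The 3 CCAAT boxes of Ccnb2 begin 87, 54 and 21 bases before the start (positions -87, -54 and -21) on the same strand, and a CHR match begins 5 bases after it. RefSeq and GENCODE starts of these 4 genes lie 0 to 9 bases apart.

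**Figure D4:**
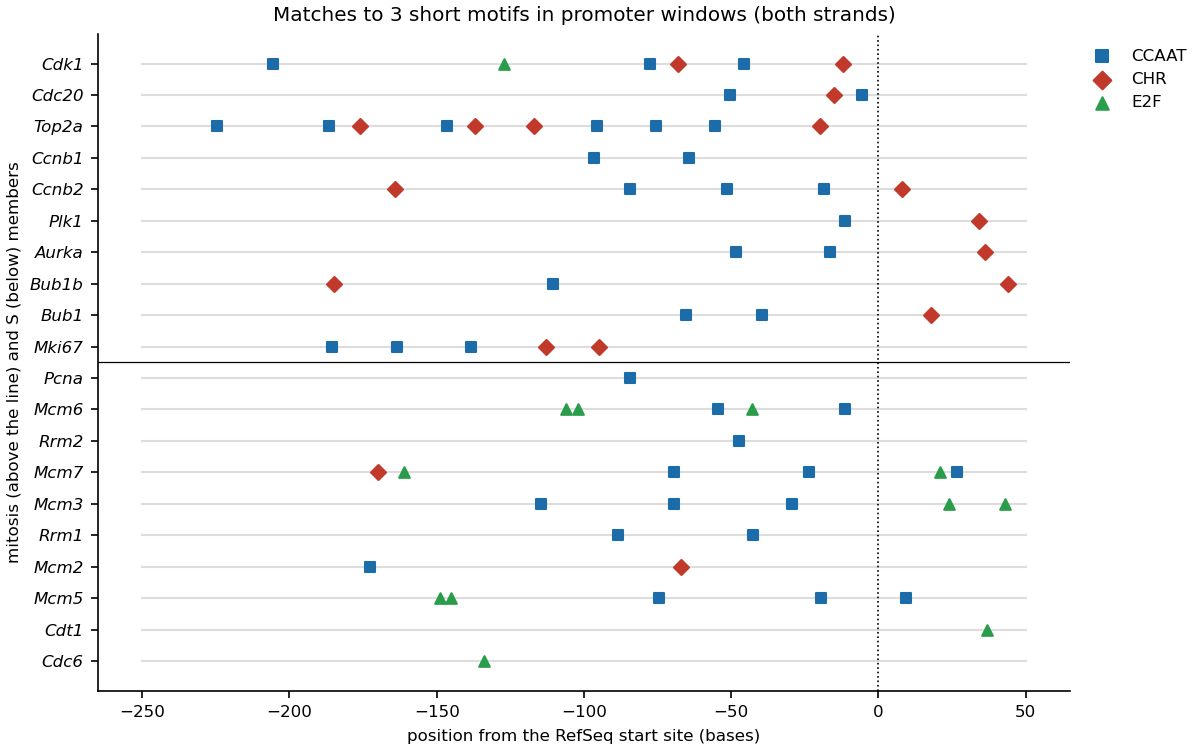
Position of each CCAAT (square), CHR (diamond) and E2F (triangle) match from the RefSeq start site, in bases, in 1 window for each mitosis and S-phase member that has a match, on both strands. CCAAT squares stand in each of the 10 mitosis rows, diamonds in 9 of them, and green triangles stand mostly in the S-phase rows.

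Other genes of the cycle, listed by function, had levels of the same order. Of 87 such genes, 85 had a mean of at least 1 TPM and 82 had at least 10 TPM in both libraries, with a list median of 47.4 ± 3.42 TPM. Transcription factors of the cycle had a median of 21.8 ± 0.368 TPM, near that of the Rb and E2f members, with the chromatin protein gene Rbbp4 at 275 and 277 TPM, the E2F partner gene Tfdp1 at 121 and 133 TPM, Lin37 at 41.8 and 31.8 TPM and Lin54 lowest at 7.79 and 8.75 TPM. Origin and helicase loading genes had a median of 28.0 ± 0.636 TPM, between Orc4 at 74.3 and 75.3 TPM and Orc1 at 6.91 and 6.65 TPM, with Gins2 (71.6 and 66.4 TPM) and Orc3 (62.0 and 64.9 TPM) next to the top.

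Polymerase, fork and nucleotide genes had a median of 68.5 ± 0.820 TPM. The clamp loader gene Rfc2 (121 and 112 TPM), the thymidine kinase gene Tk1 (114 and 98.4 TPM) and the single-strand binding gene Rpa3 (82.2 and 91.4 TPM) were highest by mean, although in replicate 1 Rpa3 lay just below Rpa1 (84.7 TPM). Kinetochore, spindle and checkpoint genes had a median of 54.2 ± 0.728 TPM, led by Birc5 (203 and 209 TPM), the centromeric histone gene Cenpa (159 and 158 TPM) and Bub3 (145 and 138 TPM), with the kinesin gene Cenpe lowest (16.8 and 17.7 TPM). Anaphase and condensin genes had a median of 63.7 ± 3.96 TPM, led by the ubiquitin-conjugating enzyme gene Ube2c (248 and 256 TPM) and the condensin genes Smc2 (127 and 135 TPM) and Smc4 (117 ± 3.78 TPM), with the separase gene Espl1 lowest (9.90 and 9.53 TPM). CDK regulators had a median of 37.6 ± 2.10 TPM. After Cdkn1c the CDK subunit genes Cks1b (287 and 300.4 TPM) and Cks2 (186 and 203 TPM) led, and Ccnb3 was lowest with 2 and 5 expected counts.

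Cell cycle genes differed between the 2 pools of embryos about as little as all genes with a mean of at least 10 TPM. Of the 49 members with a mean of at least 1 TPM, 46 lay within a log2 difference of 0.32. Beyond that difference lay 19.6% of the 15571 genes of that mean, a share that was not counted for genes of at least 10 TPM. Over 1.5-fold apart was 1 member, Cdkn1a, in a background of 7.98% of the 15571 genes. With a mean of at least 10 TPM, it was 1 of 47 members, beside 2.83% of 9480 genes. That member was higher in replicate 1, as were 5.15% of the 15571 genes by that fold. It was also the 1 member beyond the yardstick for genes of like level, which 5% of all genes pass by construction. The median absolute log2 difference was 0.09 for the members, 0.13 for the 15571 genes and 0.10 for the 9480 genes with a mean of at least 10 TPM. By direction, 34 members were higher in replicate 1 and 15 in replicate 2, and the median log2 of replicate 2 over replicate 1 was -0.07, beside -0.02 over all genes, for which 8527 were higher in replicate 1 and 6990 in replicate 2.

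Subgroup medians of this log2 difference were -0.06 for the G1 genes, -0.02 for the S-phase genes, -0.08 for the mitosis genes, -0.16 for the CDK inhibitors and -0.06 for the Rb and E2f genes. The S-phase median turned slightly positive (0.0069 to 0.015) when the libraries were centred on the median gene or scaled on counts. Of the 85 other cell cycle genes with a mean of at least 1 TPM, 0 were over 1.5-fold apart, 41 were higher in replicate 1 and 44 in replicate 2.

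**Figure D5:**
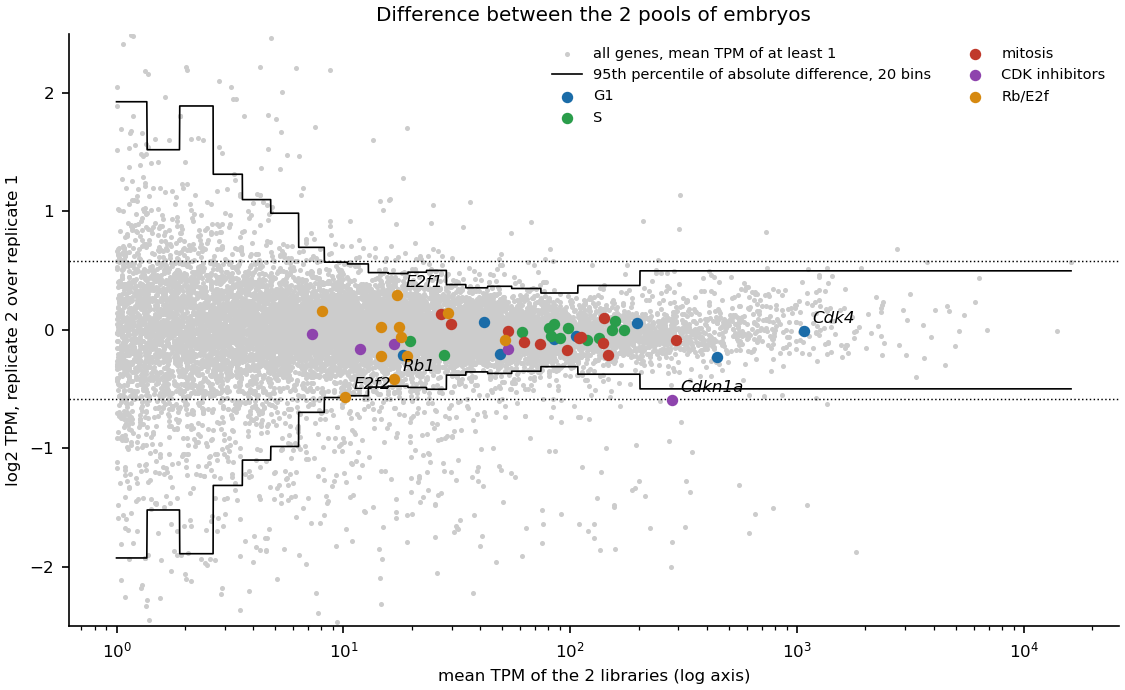
Log2 TPM of replicate 2 over replicate 1 against mean TPM (log axis) for the 15571 genes (grey) and 49 members (coloured by role), with the yardstick of like-level genes as black lines and 1.5-fold as dotted lines. Cdkn1a lies outside both lines, E2f2 and Rb1 are the next lowest members, and 121 genes fall outside the plotted range of 2.5.

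Cdkn1a was the 1 member over 1.5-fold apart in TPM, or 2.04% of the 49, beside 7.98% of the 15571 genes. Its 339 and 225 TPM (7106 and 5904 expected counts) gave a log2 of replicate 2 over replicate 1 of -0.59, against a yardstick of 0.50. The gap was 1.51-fold in TPM and 1.43-fold in counts scaled to the library total, so it fell under 1.5-fold when libraries were centred on the median gene or scaled on counts by edgeR or DESeq2. Each of the 10 skeletal muscle markers was higher in the same library, from Ckm (529 and 88.0 TPM) to Myod1 (48.3 and 29.5 TPM), and so was each of the 10 macrophage markers (median log2 -0.26). The medians of the erythroid and the limb mesenchyme and position lists went the other way (0.66 and 0.50), but not every gene did. Hbb-bs (log2 -0.0028) and Hba-a1 (-0.0071) were level, and Alas2 (-0.127), Msx1 (-0.215) and Tbx5 (-0.413) were higher in replicate 1. The cartilage and epidermis markers had medians of 0.03 and -0.04. The part of any of these lists in the Cdkn1a difference was not tested. The other inhibitors with reads among the members, Cdkn1b, Cdkn2b, Cdkn2c and Cdkn2d, were higher in replicate 1 in TPM, by 1.03- to 1.12-fold. Each of these gaps was within its yardstick. In counts scaled to the library total they were 1.01-, 1.00-, 1.15- and 1.09-fold, in that order. Cdkn1c, outside the members, was also higher in replicate 1 (log2 -0.25). Of the 49 members of all roles, 34 were higher in that library.

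Next in size were E2f2 (log2 -0.57) and Rb1 (-0.41), both lower in replicate 2 in TPM. Their expected counts were 1039 and 1008 for E2f2 and 777 and 748 for Rb1. Scaled to the library total, these counts were also lower in replicate 2, by 1.226-fold for E2f2 and 1.235-fold for Rb1. The coding transcripts were lower there as well, at 9.87 and 7.95 TPM in E2f2 and 6.71 and 5.37 TPM in Rb1. In each gene a short transcript was lower in replicate 2 too. E2f2-202, of 426 nucleotides, had 17 and 2 expected counts and 2.32 and 0.25 TPM, and Rb1-206 is given above. E2f1 was the member most in favour of replicate 2, at 15.4 and 19.0 TPM (908 and 1363 expected counts, log2 0.29). None of these 3 passed its yardstick.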

How the data were processed

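Total RNA of over 200 nucleotides, 10 ng per library with spike-in RNA added, was sequenced from 2 pools of limbs, per the labels. Expected counts per gene and per transcript, with multi-mapping reads shared out, were made by the authors on mm10 with GENCODE M4 models, per the sample records. TPM and FPKM were computed by the authors from those counts and effective lengths over all rows, spike-ins included, per the file headers. The percent of a gene taken by each transcript was also deposited by the authors. The names of aligner and counter, and whether strand was used, were not given in the sources used here.

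Symbols, positions and transcript classes came from GENCODE M21 on GRCm38, a later release than the M4 used for counting, and 42462 of 43346 mouse rows had a symbol. Promoter sequences came from RefSeq (GRCm38.p6). Log2 values were computed on TPM + 0.1. A gene entered comparisons between libraries with a mean of at least 1 TPM. Yardsticks are the 95th percentile within 20 bins of mean TPM, and a ratio took that of whichever of its genes had the larger. Coding shares are sums of TPM over transcripts annotated as protein-coding. The calculations were tested on simulated data. The 3-count limit for a gene at 0 covers counting error only, and 3 expected counts are 0.0855 and 0.0718 CPM in replicates 1 and 2. The total of 35104685 and 41757268 expected counts sets this precision. Python 3.11.15 with pandas 2.3.3, and R 4.3.3 with edgeR 4.0.16 and DESeq2 1.42.0 for scaling factors only, were used.

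All 50 members are named. Of the other cell cycle genes the 3 highest and the lowest of each list are named, and any over 2-fold apart, except 1 gene that is not reported here. Alternatives were other fold limits, filters, pseudocounts, scalings and abundance columns, counts not divided by length, each library alone and, chosen after seeing the data, coding transcripts alone. The members and lists were chosen with earlier results of these data known.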

Additional observations from a re-analysis of the deposited data

How the results depend on the processing

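Subgroup medians moved by more than the spread between replicates under 3 alternatives. With FPKM rescaled they were 100.7 TPM for G1, 95.03 for S and 18.48 for Rb and E2f genes. Over protein-coding genes only they were 114.2 (G1), 107.8 (S), 123.1 (mitosis), 17.07 (CDK inhibitors) and 20.97 (Rb and E2f). Over coding transcripts only they were 68.36 (G1), 82.22 (S), 83.65 (mitosis) and 12.96 (Rb and E2f). The number of members past 1.5-fold, 1 as reported, was 0 at 2-fold, 0 when centred on the median gene, 0 with edgeR scaling, 0 with DESeq2 scaling and 3 (Cdkn1a, E2f2 and Rb1) at a log2 difference of 0.32, which 19.6% of all genes passed. Scalings moved the median gene by 0.02 (log2). The members under 50% coding numbered 1 (Tyms) in counts instead of 5. Counts not divided by length turned the sign of 5 ratios. Of those beyond the yardstick these were Ccnd2 over Ccnd3 (0.4311), Cdt1 over Gmnn (0.1469) and Rrm2 over Rrm1 (-0.3854), and of those within it Ccne2 over Ccne1 (0.25) and Rbl1 over Rb1 (0.70). Of 24 ratios, 18 kept their sign under all 7 alternatives. The causes of these changes were not tested. No paired analysis was possible because there is only 1 group. With 2 libraries, SDs are imprecise, and depth limits the low genes, of which Cdkn2b had 212 and 252 expected counts.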

Other observations

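Among the 37 members with more than 1 transcript, 5 transcripts of 3 members shifted between the libraries by over 10 percentage points of their gene's TPM. The other 13 members have 1 transcript and cannot shift. How many of all genes shifted as much was not counted. E2f8-202, a coding form of 3499 nucleotides, held 5.65% of E2f8 in replicate 1 and 24.8% in replicate 2 (68 and 310 expected counts), while E2f8-201 held 77.0% and 61.8%. Cdc20-201 held 81.3% and 92.0% of Cdc20. The form of Cdc20 annotated for nonsense-mediated decay, Cdc20-203, had 235 expected counts in replicate 1 and 0 in replicate 2. E2f2-201 held 81.0% and 97.0% of E2f2, and E2f2-202 held the rest on 17 and 2 expected counts. With 1 library per pool these shifts were not tested.

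Some members overlap other genes, and the share of all genes with such overlap was not counted. Of the 50, 18 are overlapped by another annotated gene and 11 by a protein-coding gene on the other strand, among them Cdk4 by Tspan31 (140.1 and 124 TPM) and Ccna2 by Exosc9 (45.6 and 47.6 TPM). Pseudogenes named for Ccnb1, Ccnb2, Ccnd3 and Pcna, 5 in all, had at most 2.20 TPM.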
